A study of Homo sapiens with 14 samples.

Results

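The metallothioneins are small, cysteine-rich proteins that bind zinc and copper and also take up toxic metals such as cadmium. Their genes are classically switched on by MTF1, a zinc-sensing transcription factor that binds metal response elements in their promoters, and by glucocorticoids and oxidative stress. In fibroblasts, as in most cell types, MT2A and several MT1 genes are the forms in use, and they buffer the free zinc of the cell. The 8 genes MT1A, MT1E, MT1F, MT1G, MT1L, MT1M, MT1X and MT2A were followed here. They were chosen by name, and all 8 were listed in each of the 3 kinds of table that the series holds, among 57791 genes in the old and young tables, 54628 in the WT and HMGB2 KD tables and 38716 in the ICM tables. Because the genes are near-identical and their reads can be shared, the sum of the 8 was followed as well.

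Poly(A)-selected RNA was sequenced from IMR90 cells, which are primary fetal human lung fibroblasts, in 7 groups. Of these cells 2 isolates, named I79 and I10, were each sampled young, which means proliferating at low passage, and old, which means passaged into replicative senescence. I79 was further treated with ICM, short for inflachromene, a compound that targets HMGB1 and HMGB2, which are proteins of chromatin. The last groups were WT, for wild type, and HMGB2 KD, a knockdown made with siRNA. No group carries an engineered allele. The labels give neither which isolate was used for WT and HMGB2 KD, nor whether WT received a control siRNA, nor the dose and time of ICM. The titles list 2 replicates in each group, but the old and young groups came as 1 column each, which has no SD and no n. The other groups had 2 libraries each, and nothing in the labels says whether these were separate cultures, so that their p-values measure the spread between libraries, which may be technical.

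Depth lay between 33561766 and 41168932 counts in the WT and HMGB2 KD libraries, between 14598433 and 20055750 estimated counts in the old and young columns, and at 13290131 and 10971132 reads in the ICM libraries. The knockdown was visible in its target: in CPM (reads per gene scaled to a fixed total for each library, by TMM, a correction for library make-up), HMGB2 stood at 27.1 and 27.35 in WT and at 3.22 and 3.64 in HMGB2 KD. Of 11 fibroblast markers, 10 or 11 were above 10 CPM in every library. Of 15 markers of other cell types, between 11 and 14 were below 1 CPM, and the keratin KRT14, the surfactant protein SFTPC and the endothelial cadherin CDH5 were at 0 in all 10 columns and libraries. Among the fibroblast markers, COL1A1, VIM and PDGFRB rose and COL3A1 fell in HMGB2 KD. The summed level of the 15 was 60.7 and 58.0 CPM in the young columns of I79 and I10 and 166 and 91.8 in the old columns, where CD68 rose and MYH11 fell. It was 41.4 and 40.3 in WT, 47.2 and 53.0 in HMGB2 KD, and 92.2 and 99.6 in ICM. The 11 fibroblast markers summed to 12910 and 13460 CPM in ICM and to 29270 in I79 young. The part of these markers in the metallothionein values was not tested. In bulk RNA, fewer cells with a transcript and less of it per cell cannot be told apart.

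The 8 genes sit in 1 cluster of 75.6 kb on chromosome 16 of GRCh37, from 56642496 to 56718108, in the order MT2A, MT1L, MT1E, MT1M, MT1A, MT1F, MT1G and MT1X. MT1G alone lies on the minus strand, and MT1L is annotated as a transcribed unprocessed pseudogene. The coding sequences of the 3 leading members and of MT1G, the next coding member in the ICM tables, are shown because their likeness sets how far reads can be told apart. They were taken from GENCODE v44 lifted to GRCh37, without the stop codon, with every base that differs from MT2A in capitals.
MT2A: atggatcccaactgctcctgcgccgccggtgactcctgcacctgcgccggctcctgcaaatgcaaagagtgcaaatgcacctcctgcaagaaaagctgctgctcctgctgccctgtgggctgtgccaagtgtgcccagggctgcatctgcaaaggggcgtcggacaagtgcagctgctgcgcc
MT1E: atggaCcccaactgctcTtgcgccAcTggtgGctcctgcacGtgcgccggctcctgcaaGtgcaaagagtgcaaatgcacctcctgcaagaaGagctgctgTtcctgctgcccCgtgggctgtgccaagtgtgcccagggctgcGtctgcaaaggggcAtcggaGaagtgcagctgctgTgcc
MT1X: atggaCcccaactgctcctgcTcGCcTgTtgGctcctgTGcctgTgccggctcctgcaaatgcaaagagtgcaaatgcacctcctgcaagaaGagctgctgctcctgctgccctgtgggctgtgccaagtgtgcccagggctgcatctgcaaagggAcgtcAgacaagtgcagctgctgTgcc
MT1G: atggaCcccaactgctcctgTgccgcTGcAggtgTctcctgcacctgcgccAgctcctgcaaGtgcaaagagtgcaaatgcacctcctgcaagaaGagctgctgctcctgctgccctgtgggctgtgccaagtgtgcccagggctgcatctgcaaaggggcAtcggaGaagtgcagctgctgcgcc
Each of the 7 protein-coding members had 3 coding exons and 20 cysteine codons among 61 codons, or 62 in MT1G. MT2A and MT1E differed at 14 of 183 bases, MT2A and MT1X also at 14, and MT2A and MT1G at 11 of 186 aligned columns. Over all 21 pairs the identity ran from 88.5% for MT1X with MT1F to 94.5% for MT1E with MT1A.

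How far such sequences can be told apart depends on the read length. Each member's transcript was therefore split into all its windows of 30, 50 and 75 bases, and each window was looked up in the transcripts of every other gene. At 30 bases, 67.2% of the MT2A windows, 83.6% of the MT1E windows, 68.0% of the MT1G windows and 45.9% of the MT1X windows were found in no other gene. Within the coding sequence these shares were lower, at 38.3% for MT2A, 46.8% for MT1E, 42.0% for MT1G and 14.3% for MT1X. At 75 bases all windows of MT2A, MT1A, MT1F and MT1M were found in no other gene, as were 99.2% for MT1E, 93.5% for MT1G and 63.9% for MT1X. MT1L had none at any length, since the long noncoding gene ENSG00000291105 is annotated over it on the same strand, and MT1X is likewise overlapped by ENSG00000259827. Values of MT1X and MT1L are therefore the least certain of the set. The sum is unaffected by how reads are split among the 8, but not by reads that were discarded or given to other genes.

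**Figure D1:**
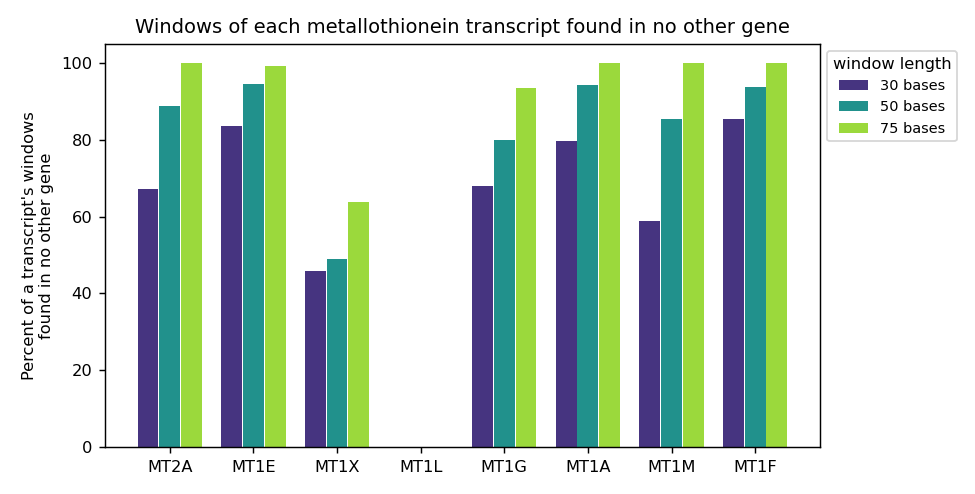
Percent of the windows of each metallothionein transcript (y axis) that occur in the transcripts of no other gene, at window lengths of 30, 50 and 75 bases (bar colours). MT1L had 0% at every length and MT1X 45.9% at 30 bases, while MT2A reached 100% at 75 bases.

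RefSeq promoters were matched for MT2A and MT1X (2 of the 8 members). They are shown because both genes are textbook targets of MTF1, whose binding element has the core TGCACNC or TGCGCNC. The 250 bases before the start of each gene are given on the plus strand of GRCh38.p14, with the matches to either core on either strand in capitals. The MT2A window is chr16:56608334-56608583 and the MT1X window is chr16:56682220-56682469.
MT2A: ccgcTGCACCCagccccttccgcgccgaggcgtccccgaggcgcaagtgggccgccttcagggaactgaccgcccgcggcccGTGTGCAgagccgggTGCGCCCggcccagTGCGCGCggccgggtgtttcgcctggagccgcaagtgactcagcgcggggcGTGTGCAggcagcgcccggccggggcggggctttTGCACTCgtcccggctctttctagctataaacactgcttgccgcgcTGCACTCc
MT1X: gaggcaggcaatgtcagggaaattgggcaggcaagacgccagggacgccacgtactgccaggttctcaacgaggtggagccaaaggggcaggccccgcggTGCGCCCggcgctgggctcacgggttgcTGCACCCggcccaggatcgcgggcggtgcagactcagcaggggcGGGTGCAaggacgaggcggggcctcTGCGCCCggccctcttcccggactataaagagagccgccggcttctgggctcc
MT2A held 7 matches, 5 on the plus and 2 on the minus strand, and MT1X held 4, of which 3 were on the plus strand. Of 35116 promoter windows of the same length, 9.87% held TGCACNC, 16.8% held TGCGCNC and 24.8% held either, while 0.37% held 4 or more matches and 0.0313% held 7 or more. A match is a description of the letters and not a measured binding site.

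MT2A was the leading member in every library. In CPM it stood at 134 in young and 377 in old cells of I79, and at 185 and 288 in those of I10. It stood at 796 and 455 in WT, at 546 and 542 in HMGB2 KD, and at 518 and 474 in I79 ICM. By counts it was between the 144th and the 290th gene of each WT, HMGB2 KD or ICM library, and between the 414th and the 1235th of each old or young column. The 3 kinds of table were counted in different ways, so values set side by side across them carry that difference as well.

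MT1E, the second most abundant member, stood at 36.9 CPM in young and 35.5 in old I79 cells, and at 34.9 and 20.4 in those of I10. It stood at 51.1 and 32.3 in WT, 37.8 and 40.1 in HMGB2 KD, and 43.6 and 37.9 in I79 ICM. MT1X followed, with 4.87 and 3.58 CPM in I79 young and old and 5.01 and 2.54 in I10 young and old. Its levels were 12.1 and 8.22 in WT, 16.2 and 12.2 in HMGB2 KD, and 19.9 and 18.3 in I79 ICM. Per base of transcript the order MT2A, MT1E, MT1X held in 9 of the 10 columns and libraries. In the second HMGB2 KD library the pseudogene MT1L came before MT1X, at 30.3 against 30.1 CPM per kb, which is closer than the spread of either gene between libraries.

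The 5 remaining members were low, apart from MT1G in the ICM libraries, and their level differed between the kinds of table. MT1L had 0 counts in all 4 old and young columns, whose annotation gives it a single transcript of 78 bases, but 142 and 75 counts in WT, 121 and 225 in HMGB2 KD, and 93.8 and 61.3 reads in ICM. MT1G had 0 or 1 count in the old and young columns, 8 and 20 in WT, 21 and 12 in HMGB2 KD, and 236 and 147 reads in ICM. MT1A, MT1F and MT1M had at most 7 counts in any column or library outside the ICM tables. In the ICM libraries MT1A had 14.7 and 9.33 reads, MT1M 11.5 and 7.83, and MT1F 0.5 and 0. A count of 0 allows up to 3 counts, which is 0.192 CPM in I79 young and 0.0752 in the second HMGB2 KD library.

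**Figure D2:**
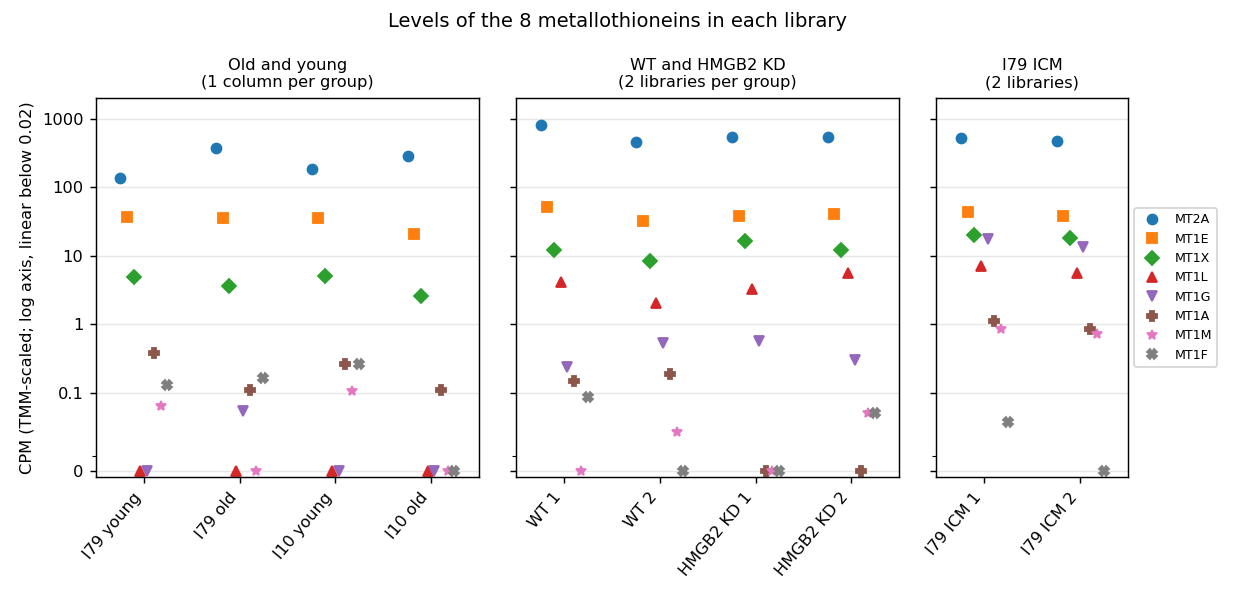
TMM-scaled CPM (y axis, log scale, linear below 0.02) of the 8 metallothioneins (symbols) in each column or library (x axis), in a panel for each kind of table. MT2A is highest everywhere, from 134 in I79 young to 796 in the first WT library, MT1E lies between 20.4 and 51.1, and MT1G is near the ICM level of MT1X only in the ICM panel.

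Old and young cells were compared to ask how the family differs once IMR90 have reached replicative senescence. MT2A was higher in the old column of both isolates, while MT1E and MT1X were not. In I79, MT2A went from 2095 to 6948 estimated counts, a ratio of 2.81 after scaling, with a 95% exact counting interval from 2.68 to 2.95. In I10 it went from 3539 to 5219 counts, a ratio of 1.56 with an interval from 1.497 to 1.63. The 2 intervals do not meet, so that the ratio was larger in I79 than in I10 beyond counting error, though with 1 column a group the difference was not tested against replicates. Scaled to library totals in place of TMM, the log2 ratio was 1.33 in I79 and 0.39 in I10, against 1.49 and 0.64 with TMM.

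MT1E did not follow MT2A. In I79 it had 576 counts in young and 655 in old, a ratio of 0.964 (interval 0.860 to 1.08), and in I10 it had 669 and 370, a ratio of 0.586 (interval 0.515 to 0.666). The interval includes 1 in I79 and lies below it in I10. MT1X had 76 and 66 counts in I79, a ratio of 0.736 (interval 0.521 to 1.04), and 96 and 46 in I10, a ratio of 0.508 (interval 0.349 to 0.729). For MT1X, too, the interval includes 1 in I79 alone. MT1A had 6 and 2 counts in I79 and 5 and 2 in I10, which is too few for its direction to be read.

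**Figure D3:**
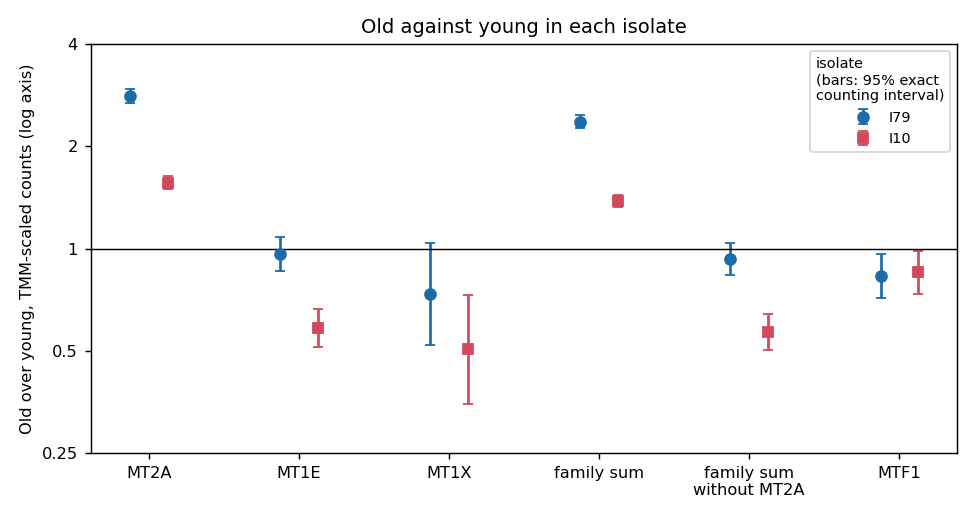
Ratio of old to young (y axis, log scale, TMM-scaled counts) for MT2A, MT1E, MT1X, the family sum with and without MT2A, and MTF1, in isolates I79 and I10 (symbols); bars are 95% exact counting intervals and the line marks a ratio of 1. MT2A lies at 2.81 and 1.56, whereas MT1X lies at 0.736 and 0.508.

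A model with a term for isolate took the isolates as replicates. By edgeR's quasi-likelihood test with Benjamini-Hochberg adjustment, calls needed an adjusted p below 0.01 together with a log2 fold change beyond 0.6 either way. Of the 8 members, 3 had enough counts to be tested and 0 were called, where 9.57% of 15116 genes tested were called. At an unadjusted p under 0.05 there was 1 of the 3, MT2A. The share of all genes tested that lay there was not counted. It was larger than the 25.5% that passed at an adjusted p under 0.05 with the fold minimum. For MT2A the fitted log2 fold change was 1.07 (SE 0.23, adjusted p 0.0267), higher in 2 of 2 isolates, and 90.2% of the genes tested had a lower fold change. It passed at an adjusted p under 0.05 with the same fold minimum, as did 25.5% of all genes tested, and it was the 1 member of 3 called by DESeq2 at 0.01, which called 13.6% of 15442 genes. With no filter on low counts edgeR called it too (1.05, adjusted p 1.12e-08), as it did 14.7% of 28880 genes. For MT1E the value was -0.41 (SE 0.20, adjusted p 0.183) and for MT1X -0.71 (SE 0.28, adjusted p 0.118), both lower in 2 of 2 isolates. The sign was the same in both isolates for 80.9% of all genes tested. The model had 1 residual degree of freedom, and scaling to library totals moved the median of all genes from -0.01 to -0.22 on the log2 scale, with MT2A then at 0.855.

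The MT2A reads of the old and young columns fell on the same transcripts throughout. MT2A-201 carried 82.3% and 82.2% of them in young and old I79, and 81.3% and 83.3% in young and old I10. MT2A-205, which has no defined coding sequence, carried 17.0%, 17.0%, 18.1% and 15.6%. MT2A-201 has 786 bases in those tables and 401 bases in the annotation used here, and its level per length in deposited TPM was 292 and 740 in young and old I79, and 403 and 549 in young and old I10. Both transcripts had more reads in the old column of each isolate.

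The family sum followed MT2A. It was 176 CPM in I79 young and 416 in I79 old, a ratio of 2.36 (interval 2.26 to 2.47), and 225 and 311 in I10, a ratio of 1.38 (interval 1.33 to 1.44). Without MT2A the ratio was 0.932 (interval 0.838 to 1.04) in I79 and 0.570 (interval 0.505 to 0.643) in I10. The sum of deposited TPM over the 8 members was tried after the data had been seen. TPM weighs each transcript by its length and is not TMM-scaled. It gave log2 ratios of 1.03 in I79 and 0.15 in I10, against 1.24 and 0.47 for the TMM-scaled counts. Counts scaled to library totals gave 1.07 and 0.21.

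The make-up of the family shifted accordingly. MT2A made up 76.0% of the family counts in I79 young (exact interval 74.4 to 77.6) and 90.5% in I79 old (89.8 to 91.2), and 82.0% in I10 young (80.8 to 83.1) and 92.6% in I10 old (91.9 to 93.3). For every 1000 counts of MT2A there were 275 of MT1E in I79 young and 94.3 in I79 old, and 189 in I10 young and 70.9 in I10 old. MT1X went from 36.3 to 9.499 per 1000 in I79 and from 27.1 to 8.81 in I10. The old columns were more alike in these ratios than the young ones were.

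**Figure D4:**
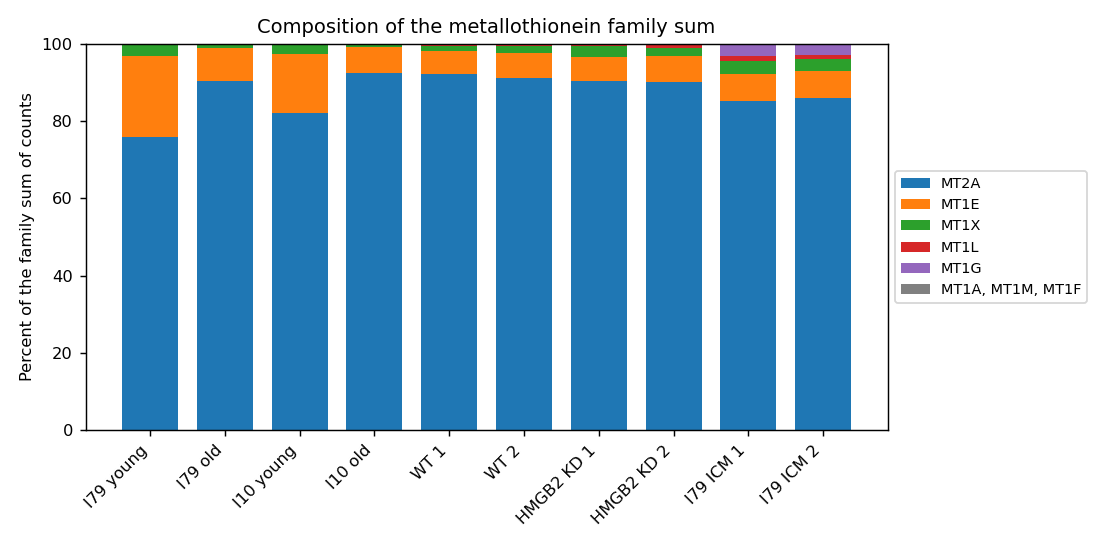
Percent of the family sum of counts (y axis) taken by each metallothionein (colours) in each column or library (x axis). MT2A takes 76.0% and 82.0% in the young columns of I79 and I10 and between 85.2% and 92.6% elsewhere.

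The knockdown asks whether depleting HMGB2 alone moves these genes. The metallothioneins showed no change that passed the test. Of the 8, 5 were tested and 0 were called by edgeR's quasi-likelihood test, where 5.2% of 15338 genes tested were called, or 797 genes, and 312 without the second HMGB2 KD library. With the threshold moved to 0.05 it was still 0 of 5, where 7.74% of all genes were called. At an unadjusted p under 0.05 by edgeR there was 1 of the 5, MT1X. The share of all genes tested that lay there was not counted and was larger than that 7.74%, so no excess is read from it. DESeq2 called 0 of the 4 members it tested and 6.46% of 13786 genes.

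MT2A had 27247 and 16975 counts in WT and 19979 and 21606 in HMGB2 KD. Both knockdown libraries lay between the WT libraries, and the group means were 625 ± 241 CPM in WT and 544 ± 2.72 in HMGB2 KD (SD, n = 2). The log2 fold change was -0.20 (SE 0.21, adjusted p 0.622), and it was 0.26 without the first WT library and -0.55 without the second. MT1E behaved alike, with 1750 and 1207 counts in WT, 1385 and 1599 in HMGB2 KD, and a change of -0.10 on the log2 scale (SE 0.18, adjusted p 0.808), which became 0.27 without the first WT library.

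MT1X was the 1 tested member whose groups did not overlap, as was the case for 53.8% of all genes tested. It had 415 and 307 counts in WT and 593 and 485 in HMGB2 KD. The means were 10.2 ± 2.76 CPM in WT and 14.2 ± 2.85 in HMGB2 KD (SD, n = 2). The nearest libraries, at 12.12 in WT and 12.16 in HMGB2 KD, were almost level. The log2 fold change was 0.48 (SE 0.20, adjusted p 0.166), and over 10 alternative settings it ran from 0.22 to 0.78 with adjusted p from 0.0037 to 0.761, in none of which both thresholds were passed. It was highest without the first WT library and lowest without the second. For every 1000 counts of MT2A there were 15.2 and 18.1 of MT1X in WT and 29.7 and 22.5 in HMGB2 KD. MT1E stayed between 64.2 and 74.0 per 1000 in the 4 libraries.

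The pseudogene MT1L had means of 3.08 ± 1.51 CPM in WT and 4.47 ± 1.65 in HMGB2 KD (SD, n = 2), with overlapping groups and a change of 0.55 on the log2 scale (SE 0.35, adjusted p 0.383). Without the first WT library it was 1.15 and without the second 0.11. For MT1G, at 8 to 21 counts, the fitted change was 0.17 (SE 0.69, adjusted p 0.925). MT1A was below the filter on low counts, with 5 and 7 counts in WT and 0 and 0 in HMGB2 KD. The 3 counts that 0 over the group allows are 0.0392 CPM in HMGB2 KD, against 0.168 in WT, whose own counting error is left out here. By edgeR with the filter removed, the adjusted p of MT1A was 0.285. MT1F and MT1M had at most 3 counts in each of the 4 libraries.

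**Figure D5:**
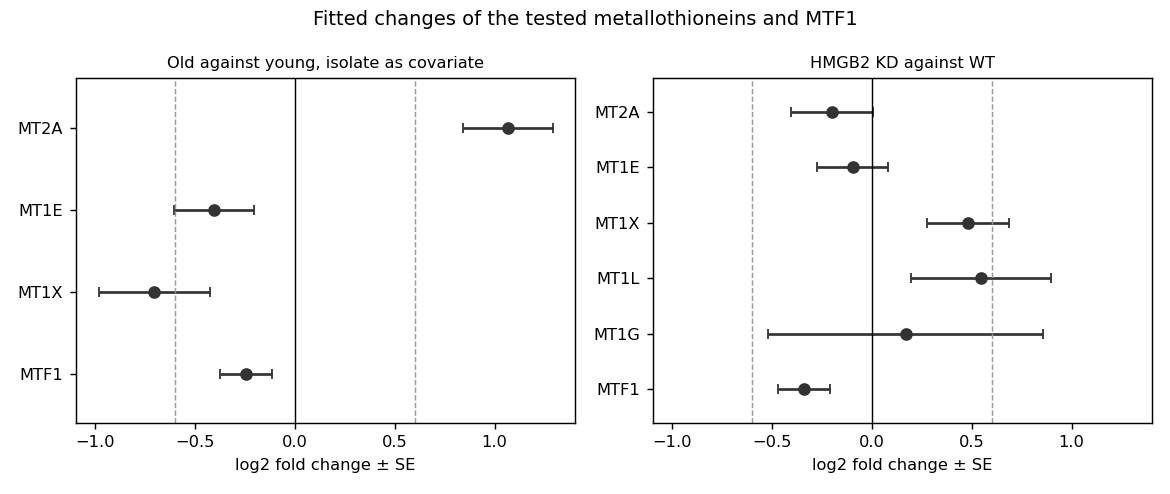
Log2 fold change with its standard error (x axis) of each tested metallothionein and of MTF1 (y axis), for old against young over both isolates (left) and for HMGB2 KD against WT (right); dashed lines mark 0.6 in either direction. MT2A lies at 1.07 in old cells and at -0.20 in HMGB2 KD, and no point here passed the adjusted p threshold of 0.01.

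The family sum in WT was 864 and 498 CPM, and in HMGB2 KD 604 and 600, again inside the WT range. The means were 681 ± 259 and 602 ± 2.44 (SD, n = 2), a log2 ratio of -0.12 with a pooled SD of 0.40 between libraries. Without the first WT library the log2 ratio was 0.27, and without the second -0.52. MT2A made up 92.1% and 91.3% of the family counts in WT and 90.4% and 90.3% in HMGB2 KD.

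The ICM libraries were set beside I79 young without a test, since their reads were counted per transcript region and shared in fractions among genes. Over the 24638 genes listed in all tables, MT2A stood at 538 and 485 CPM in ICM (511 ± 37.1, SD, n = 2), 153 in I79 young and 383 in I79 old. The log2 ratio of ICM to I79 young was 1.74 for MT2A, 1.81 for MT1X, -0.01 for MT1E and 1.57 for the family sum. WT libraries, which had no ICM, were compared with I79 young in the same way and gave 2.09 for MT2A, 0.96 for MT1X, 0.07 for MT1E and 1.82 for the sum. Against WT, ICM gave -0.35 for MT2A, 0.86 for MT1X and -0.25 for the sum. ICM treatment and the way of counting cannot be told apart here, and 59.2% of 13857 genes lay more than 0.6 from I79 young in ICM, as did 43.2% in WT.

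The region columns of the ICM tables show where these reads lay. In the 2 libraries 75.7% and 76.8% of the MT2A reads and 79.3% and 81.4% of the MT1E reads were placed in the 5′ UTR, against 10.4% and 10.6% of the reads of all genes. For MT1X it was 29.0% and 34.1%. ICM was then limited to coding-region reads, while I79 young, which came without regions, kept all its reads. The log2 ratio of ICM to I79 young was then 0.29 for MT2A, -1.74 for MT1E, 1.93 for MT1X and 0.31 for the family sum. These ratios set a part of each gene against the whole, so their sign cannot be read as a change in level. All MT1G reads of the ICM libraries were placed in the coding sequence. Of its coding windows, 42.0% at 30 bases, 55.5% at 50 and 80.4% at 75 were found in no other gene. MT1G reached 16.1 ± 3.17 CPM in the ICM libraries (SD, n = 2) and lay between 0.25 and 0.60 in the 4 libraries of WT and HMGB2 KD. What shared reads add to this was not tested.

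MTF1, the metal-responsive activator of the family, stood at 23.2 and 19.3 CPM in I79 young and old and at 22.2 and 19.0 in I10 young and old, a change of -0.25 on the log2 scale (SE 0.13, adjusted p 0.206). In WT it was at 38.6 and 36.4 and in HMGB2 KD at 29.2 and 30.05, groups that did not overlap, as in 53.8% of all genes tested. The change was -0.34 on the log2 scale (SE 0.13, adjusted p 0.121). Neither value passed the test by edgeR, and in both comparisons MTF1 was on the lower side.

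Genes for zinc transport and for copper handling were read beside the family. Of 10 SLC30 zinc exporters, 6 were tested in each comparison and 0 were called by edgeR or by DESeq2. At an unadjusted p under 0.05 by edgeR there were 2 in HMGB2 KD and 1 in old cells. The share of all genes tested that lay there was not counted. It was larger than 7.74% in HMGB2 KD and than 25.5% in old cells, so no excess is read from these counts. Of 14 SLC39 zinc importers, 2 of the 10 tested rose in old cells by edgeR, where 5.75% of all genes tested rose. DESeq2 called 3, the other being SLC39A6, where it called 13.6% of 15442 genes in either direction. SLC39A10, a plasma membrane importer, stood at 55.2 CPM in young and 106 in old I79 cells and at 69.3 and 129 in those of I10, which is 0.92 on the log2 scale (SE 0.10, adjusted p 0.00608). SLC39A13 rose by 0.98 (SE 0.11, adjusted p 0.00692). In HMGB2 KD, 0 of the 9 tested importers were called by edgeR and 0 by DESeq2. By edgeR 2 lay at an unadjusted p under 0.05, where the uncounted share of all genes tested was again larger than 7.74%. The median log2 fold change of the importers was 0.15 in old cells, beside -0.01 over all genes tested.

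Of 15 copper-handling genes, 13 were tested in old cells, where SLC31A2, a copper transporter, rose by 1.92 (SE 0.21, adjusted p 0.00626) and STEAP2, a metalloreductase, fell by 2.88 (SE 0.31, adjusted p 0.00625). Of all genes tested in old cells, 5.75% rose and 3.82% fell. In HMGB2 KD, 0 of 14 copper-handling genes were called by edgeR or, of 13, by DESeq2. At an unadjusted p under 0.05 by edgeR there were 3. The uncounted share of all genes tested there was larger than 7.74%, so no excess is read from this either. The genes called here were few on either side, and the list medians were 0.10 in old cells and -0.06 in HMGB2 KD.

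Other inducible genes were read in the same way. Of 14 heat shock and metal stress genes, 3 of 14 tested fell in old cells, the chaperones HSPH1 (-0.99, adjusted p 0.0071), HSPD1 (-0.88, adjusted p 0.00842) and HSPE1 (-0.89, adjusted p 0.00868 by edgeR), and the list median was -0.42. Over all genes tested 3.82% fell by edgeR. DESeq2 called 5 of the 14, the others being DNAJA1 and HMOX1, where it called 13.6% of 15442 genes in either direction. HMOX1 was lower in the old column of both isolates (-1.06, adjusted p 0.0706 by edgeR). In HMGB2 KD, where 2.86% of all genes tested rose, 3 of 13 tested rose, namely the haem oxygenase HMOX1 (0.95, adjusted p 0.000503), the small heat shock proteins CRYAB (0.93, adjusted p 0.0021) and HSPB1 (0.81, adjusted p 0.00782). Of 10 glucocorticoid targets, with 9 tested, FKBP5 fell by 2.90 (adjusted p 0.00338) and DUSP1 rose by 1.26 (adjusted p 0.00426) in old cells. There, 3.82% of all genes tested fell and 5.75% rose. HSD11B1, which regenerates active glucocorticoid, fell by 1.22 in HMGB2 KD (adjusted p 0.0072), where 2.34% of all genes tested fell and DESeq2 called 0 of the 9. Over all these lists 4 genes were called in HMGB2 KD, and 2 without the first WT library or without the second HMGB2 KD library.

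The genes whose pattern was most like the family sum were sought among 12775 genes tested in both models, by the smallest root mean square difference of log2 CPM over the 4 old and young columns and the 4 WT and HMGB2 KD libraries, each centred within its kind of table. ACVR2B-AS1 was nearest at 0.099, followed by ARHGAP27P1-BPTFP1-KPNA2P3 at 0.139, SAMD1 at 0.142, NME3 at 0.145 and HSD11B1L at 0.146, where the median over all genes was 0.463. MT2A itself, which makes up most of the sum, lay at 0.0811. ACVR2B-AS1 was under 1 CPM in all 8 columns and libraries, and ARHGAP27P1-BPTFP1-KPNA2P3 and SAMD1 were under 1 CPM in the 4 libraries of WT and HMGB2 KD. HSD11B1L had 3.71 CPM in young and 10.1 in old I79 cells, with 4.49 and 8.29 in those of I10, while it stood at 8.18 and 5.68 in WT and at 6.80 and 7.30 in HMGB2 KD.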

How the data were processed

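The metallothioneins and the gene lists were chosen with earlier results of these data known. Raw counts per gene symbol are what the authors deposited for the WT and knockdown libraries, with summary rows of 16.9% to 18.0% of all reads that were left out. Those rows set apart reads without a unique alignment. The submitters' processing notes name STAR 2.6.0c, featureCounts, DESeq2 and GRCh37, without tying a tool to a table, and use of strand is not given in the sources used here. For old and young cells the authors deposited estimated counts and TPM per transcript, 1 column a group, by a quantifier not given in the sources used here. These were summed per gene symbol through GENCODE v44 lifted to GRCh37 (97.7% of transcript IDs and 97.2% to 97.4% of reads matched) and rounded to whole numbers. For ICM the authors deposited expected counts, fractional reads per gene and region, which were summed over regions.

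Tests were edgeR 4.0.16 (R 4.3.3) quasi-likelihood fits with TMM and filterByExpr over all genes, checked on simulated counts, with DESeq2 1.42.0 as an alternative. A standard error is the log2 fold change over the square root of F. Old against young had isolate as covariate. Within an isolate, for ICM and for the family sum no test was run. ICM ratios used log2 CPM with a prior count of 2. Counting intervals (95%, Clopper-Pearson) and the limit of 3 counts cover counting error only, since reads carried no molecular identifiers. Markers were counted above 10 and below 1 CPM. Levels per length used the deposited TPM for old and young and, elsewhere, CPM per kb of the canonical transcript. Replicates were not duplicates. Named were all 8 members, MTF1, HMGB2, up to 3 called genes per list and direction with the largest fold change, and the 5 genes nearest the family sum. Alternatives were other scalings, filters, tools, thresholds, the replicate block, a removal-of-unwanted-variation factor and leaving out each library or isolate.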

Additional observations from a re-analysis of the deposited data

How the results depend on the processing

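Most values kept their direction and side of the threshold. Genes called in HMGB2 KD went from 797 to between 312 and 999 without 1 library, and those on the lists from 4 to between 2 and 5. With the replicate block, 1243 genes were called. Equal numbers in WT and HMGB2 KD were no known pairing (r = 0.124 between their replicate differences across genes). Genes called in old cells went from 1447 to 3130 with library totals, 4251 without a filter and 3860 at an adjusted p under 0.05, and those on the lists from 9 to 17 without a filter and 15 at 0.05. The share of calls that were higher was 60.1% and 32.6% with library totals in old cells, and 55.0% and 44.3% in HMGB2 KD. Without 1 library, fold changes in HMGB2 KD reversed in part for MT2A (-0.55 to 0.26), MT1E (-0.40 to 0.27) and MT1G (-0.37 to 0.89); the family sum ran from -0.52 to 0.27. Log2 old over young was, with library totals, 1.07 and 0.21 for the family and 1.33 and 0.39 for MT2A (I79 and I10). By deposited TPM, tried after the data were seen, it was 1.03 and 0.15, and 1.34 and 0.37. Without MT2A the family reversed to -0.10 and -0.81. The MT2A share rose by 14.5 and 10.6 percentage points in counts and by 16.8 and 12.9 per length. The ICM ratio of the family was 0.31 with coding reads of ICM set against all reads of I79 young. It reversed to -0.25 against WT (MT2A -0.35). The causes were not tested. A count floor of 3 limits MT1A, MT1F, MT1G and MT1M.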

Other observations

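Metallothionein genes outside the 8 were almost silent. Of 13 such genes and pseudogenes, 0 had enough counts to be tested in either comparison, and they made up at most 0.325% of all metallothionein counts in the old and young columns, at most 0.0317% in the WT and HMGB2 KD libraries, and 0.533% and 0.418% in the ICM libraries. MT3, the growth inhibitory form first known from brain, had 0 counts in I79 young and 19 in I79 old. In I10 it had 1 count in young and 3 in old. After scaling, the 19 counts were 5.37 times the 3 counts that 0 allows, with their own counting error left out. The exact counting interval of the old to young ratio began at 3.955 in I79 and ran from 0.255 to 167 in I10. MT3 was singled out after its values had been seen, and no test was run within an isolate.

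Among the 2 young columns, MT2A was 1.38 times as high in I10 as in I79, while MT1E stood at 0.947 times and MT1X at 1.03 times. Among the old columns, I10 was the lower for all of them, at 0.765 times for MT2A, 0.575 times for MT1E and 0.710 times for MT1X. With 1 column a group these ratios were not tested.

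SLC30A1, the zinc exporter of the plasma membrane and itself a known MTF1 target, had WT levels of 63.3 and 68.2 CPM and HMGB2 KD levels of 49.1 and 48.0, a change of -0.44 on the log2 scale (SE 0.12, edgeR adjusted p 0.0362) that did not reach the thresholds used. It was picked out after its values had been seen.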
